A study of Mus musculus with 7 samples.

Results

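The TGF-beta and BMP genes described here are 10 mouse genes: the ligands Tgfb1, Tgfb2, Tgfb3 and Bmp2, the receptor Tgfbr2, the signal transducers and inhibitors Smad3, Smad7, Ski and Skil, and the target gene Tgfbi. They were chosen by symbol, from probe sets annotated to a single gene, and are 10 of the 18193 genes on the arrays, with 24 of 34945 such probe sets. They were measured in macrophages sorted by GFP and by the macrophage surface antigen that Adgre1 encodes, from papain-digested brains of C57/Bl6 mice. The Gl261 group (4 arrays) came from tumours of the mouse glioma line Gl261, injected into the brain and grown for 21 days in mice carrying transplanted GFP bone marrow. The normal brain group (3 arrays) came from mice 8 weeks old. Whether the normal mice also carried GFP marrow, how old the Gl261 mice were, and whether each array was a separate animal are not in the labels. The p-values thus cover array-to-array spread alone, which may be technical.

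TGF-beta ligands are secreted in a latent form bound to their own propeptide, are released by integrins and proteases, and signal through the type II receptor Tgfbr2 and the type I receptor Tgfbr1 to Smad2 and Smad3. BMP ligands use related receptors and Smad1 and Smad5, and Smad4 is shared by both branches. Smad7, Ski and Skil restrain the signal, and Smad7 and Skil are themselves induced by it. In the brain, TGF-beta is known to be needed for microglia, the resident macrophages, to keep their adult gene programme.

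Values are MAS5 signals, a linear intensity per probe set (a group of short probes for a transcript). Differences are Gl261 minus normal brain on the scale of log2(signal + 6), where the added 6 shrinks the fold of dim probe sets. A gene was called when its limma p, adjusted by Benjamini-Hochberg over 12125 tested genes, was under 0.05. The probe set with the highest mean stood for its gene. Background, from control probe sets for Bacillus transcripts, was log2 4.19 to 4.70. The arrays were already scaled to equal trimmed mean signals, so that equality is no check on them. Median signals were 50.9 to 65.0 in Gl261 and 49.5 to 73.0 in normal brain. Correlations between arrays over the tested genes were 0.942 to 0.954 within Gl261 and 0.896 to 0.927 within normal brain. Between the groups they were 0.875 to 0.922, a range that overlaps the one within normal brain. The 3′ to 5′ signal ratio of Gapdh, a sign of RNA integrity, was 1.75 ± 0.127 in Gl261 (SD, n = 4) and 2.41 ± 0.0243 in normal brain (SD, n = 3; two-sided exact permutation p = 0.0286, the smallest that 35 splits allow). Its part in the differences below was not tested. None of the 8 macrophage markers was called by limma, and their summed signal was 53421 to 74037 in Gl261 and 63474 to 80150 in normal brain. Adgre1, the gene of the sorting antigen, differed by -0.39 (SE 0.13, limma adjusted p = 0.0814).

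Of the 10 genes, 4 were called lower in Gl261 and 0 higher. Bmp2, Tgfb2, Tgfbr2 and Smad7 fell, and of these Tgfb2 passed the filter on low values only through normal brain, which leaves 3 without it. Over all tested genes 10.1% were called, 4.2% lower and 5.92% higher. At an unadjusted limma p under 0.05, 5 of the 10 were lower (Skil in addition) and 2 higher (Tgfb1 and Tgfb3), against 10.9% and 15.2% of all tested genes. For 6 of the 10 genes the arrays of the groups lay apart without overlap, against 23.4% of all tested genes. Tgfb2, which passed the filter only through normal brain, is among the 5 lower genes and among these 6. The median difference was -0.31 over the 10 genes and 0.04 over all tested genes. The counts depended on the arrays and on the scaling: 2 were called lower and 0 higher without normal brain replicate 3, 3 lower and 2 higher without normal brain replicate 1, 3 lower and 1 higher without Gl261 replicate 4, and 2 lower and 2 higher after median centring of the arrays.

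**Figure D1:**
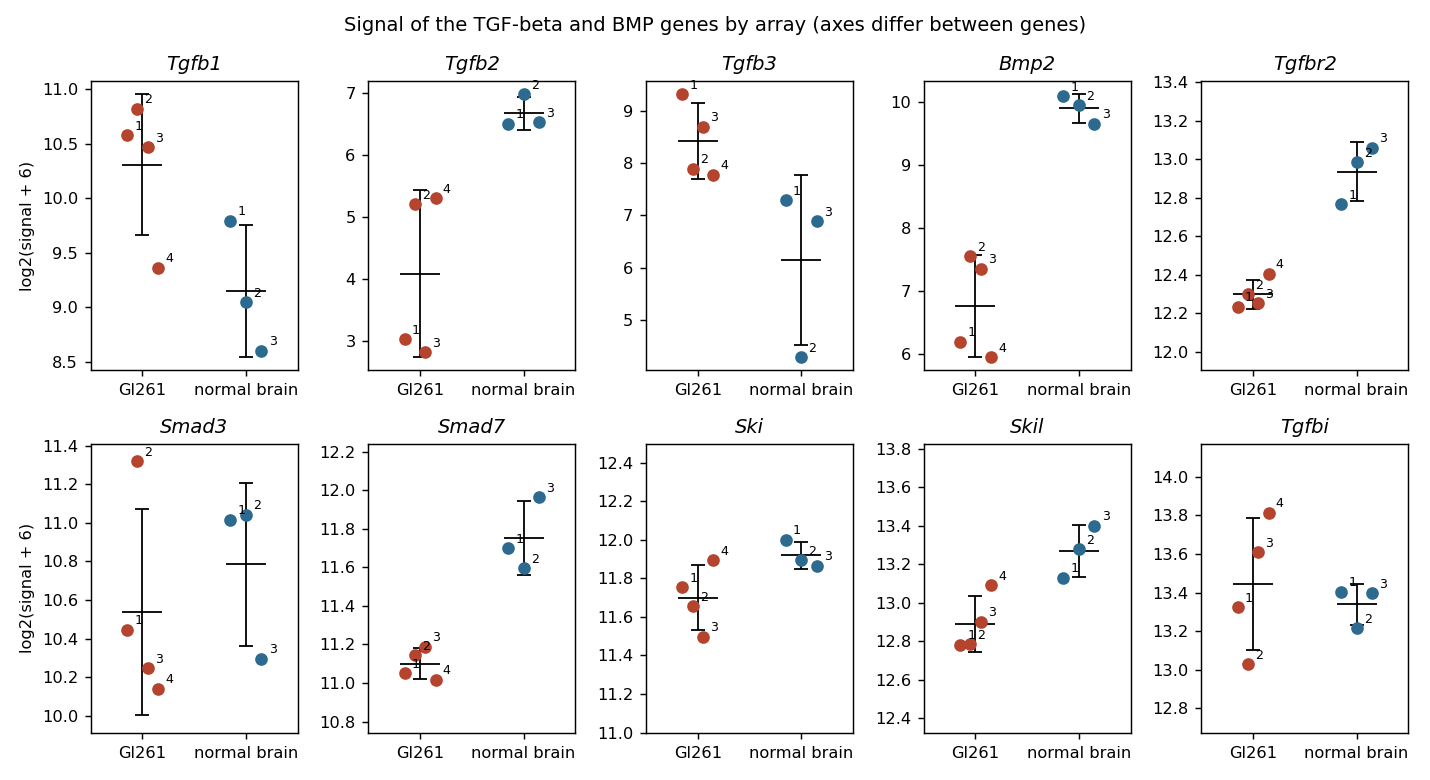
Each panel plots the log2(signal + 6) of a gene's probe set on the 4 Gl261 arrays (left, red) and the 3 normal brain arrays (right, blue), with the replicate number beside each point and the mean ± SD as a bar. All Gl261 points lie under all normal brain points for Bmp2, Tgfb2, Tgfbr2, Smad7 and Skil, all lie above them for Tgfb3, and the groups overlap for the other 4 genes.

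Bmp2, a BMP ligand known for bone and heart development, had the largest difference of the 10. Its signal was 67.4, 182, 157 and 56.1 in Gl261 replicates 1 to 4, against 1083, 979.6 and 796 in normal brain replicates 1 to 3. All 4 Gl261 values were above background and far under every normal brain value, with replicates 2 and 3 the higher ones. The difference was -3.13 (SE 0.47, 95% interval -4.15 to -2.11, limma adjusted p = 0.00249), so that normal brain was 8.74-fold above Gl261. Bmp2 was called in all 19 alternatives, with limma adjusted p-values of 0.000758 to 0.0173. It has 1 probe set on the array. The 3 tested genes with the pattern most like Bmp2 over the 7 arrays were Blk, Hmces and Zbtb18 (Pearson r = 0.995, 0.989 and 0.984, a description of 2 groups that do not overlap). Blk, a B cell kinase, is in the B cell marker list, Hmces acts in DNA repair and Zbtb18 is a transcriptional repressor.

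Some markers of other cell types were lower along with Bmp2. All 4 tested B cell markers were called lower, and their summed signal was 662 to 1304 in Gl261 and 4003 to 5134 in normal brain. Of 6 tested endothelial markers 2, Cldn5 and Tek, were called lower, Tek having passed the filter on low values only through normal brain, with sums of 508 to 1691 in Gl261 and 2472 to 2969 in normal brain. Pecam1 and Kdr of the same list differed by 1.23 and 0.43 (limma adjusted p = 0.127 and 0.647), with every Gl261 array above every normal brain array for Pecam1. In Gl261 replicates 1 to 4 the endothelial sums were 508, 1691, 673 and 616, and the B cell sums 874, 1304, 662 and 791. All 6 neutrophil markers were called lower as well, Mpo having passed the filter only through normal brain, with sums of 16406 to 22799 in Gl261 and 39549 to 50811 in normal brain. None of the B cell, endothelial or neutrophil markers was at or under background on all arrays. Their part in the Bmp2 difference was not tested. In sorted bulk RNA, fewer cells of a type and less RNA per cell cannot be told apart.

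The means of the 3 TGF-beta ligands differed in direction, higher in Gl261 for Tgfb1 and Tgfb3 and lower for Tgfb2. Only Tgfb2 was called, and the ligands were not tested against each other. Tgfb1, the main TGF-beta of blood and immune cells, had signals of 1525, 1804, 1412 and 652 in Gl261, against 883, 522 and 382 in normal brain. Gl261 replicates 1 to 3 were above every normal brain array, and replicate 4 lay between normal brain replicates 1 and 2. The difference of 1.16 (SE 0.37, 95% interval 0.37 to 1.96) was not called (limma adjusted p = 0.0647). Without Gl261 replicate 4 it was 1.48 and was called (limma adjusted p = 0.0235), and without normal brain replicate 1 it was 1.49 (limma adjusted p = 0.0381). The other 5 fits without 1 array did not call it, with 0.89 without normal brain replicate 3 (limma adjusted p = 0.175), and the mean of its probe sets gave 0.74 (0.261). The other Tgfb1 probe set differed by 0.32, with overlapping groups (limma adjusted p = 0.763 over 27022 probe sets). Platelets carry much TGF-beta. Of 5 tested platelet markers 1, Pf4, was called lower, and the summed signal, most of it Pf4, was 5286 to 6623 in Gl261 and 8391 to 9294 in normal brain. Itgb3 and Itga2b differed the other way, by 1.32 and 1.58 (limma adjusted p = 0.0919 and 0.0951). Itga2b passed the filter only through Gl261, with 1 of 3 normal brain arrays above background. Of 6 T and NK cell markers 1, Cd8a, was called higher, with sums of 2065 to 4018 in Gl261 and 1281 to 2714 in normal brain. Of 3 tested red cell markers 2 were called lower, 1 of them (Alas2) having passed the filter only through normal brain, with sums of 93.7 to 4506 in Gl261 and 9436 to 16102 in normal brain. The part of these cells in the Tgfb1 values was not tested.

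Tgfb3, the isoform known for palate and lung development, had signals of 635, 233, 409 and 214 in Gl261, against 150.0, 13.5 and 113 in normal brain. All 4 Gl261 arrays were above all 3 normal brain arrays, and normal brain replicate 2 was under background. The difference of 2.27 (SE 0.71, 95% interval 0.73 to 3.81) was not called (limma adjusted p = 0.0621), and 6 of 19 alternatives called it. It was 1.34 without normal brain replicate 2 and 1.55 with the median of all values as the added constant. Of 7 fibroblast and pericyte markers 3 (Col1a1, Col3a1 and Dcn) were called higher, with sums of 2503 to 4142 in Gl261 and 514 to 1789 in normal brain, while Rgs5 differed by -0.93 (limma adjusted p = 0.368). Of 6 tested oligodendrocyte precursor and glioma-type markers 4 were called higher, with sums of 831 to 1503 in Gl261 and 104 to 370 in normal brain, but 3 of the 4 (Sox10, Olig2 and Gpr17) passed the filter only through Gl261. None of the markers of either list was at or under background on all arrays, and their part in the Tgfb3 values was not tested.

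Tgfb2, the isoform known for heart and eye development, was close to background. Its signal was 2.19, 31.0, 1.05 and 33.5 in Gl261, against 84.9, 121 and 86.8 in normal brain. The groups did not overlap, and 2 of 4 Gl261 arrays and 3 of 3 normal brain arrays were above background. The difference was -2.59 (SE 0.69, limma adjusted p = 0.0372), and the gene passed the filter on low values only through normal brain. Of 18 alternatives 11 lost the call. Leaving out Gl261 replicate 1 or 3 gave limma adjusted p-values of 0.0985 and 0.108, leaving out normal brain replicate 1, 2 or 3 gave 0.0669, 0.0879 and 0.0676, and the fit on every probe set gave 0.0569. The other tested Tgfb2 probe sets differed by -0.37 and -0.21 (limma adjusted p = 0.783 and 0.853) with overlapping groups.

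Tgfbr2, the receptor that binds the ligand and starts the signal, fell by 0.64 on the log2 scale (SE 0.13, 95% interval -0.93 to -0.34, limma adjusted p = 0.0138). Its signal was 4810.2, 5036, 4876 and 5421 in Gl261, against 6953, 8087 and 8533 in normal brain. Every Gl261 array was lower than every normal brain array, and the Gl261 values lay within a narrow range. The call held in each of the 7 fits without 1 array (limma adjusted p = 0.0179 to 0.0491). It was lost under median centring (0.161), with a single prior variance for dim and bright genes (0.0781) and for the mean of its probe sets (-0.10, 0.897). That mean includes a dim probe set at a difference of 0.02 and another that was at or under background on all 7 arrays. Its type I partner Tgfbr1 had log2 values of 12.63 to 13.17 in Gl261 and 13.16 to 13.62 in normal brain, with a difference of -0.53 that was not called (SE 0.17, limma adjusted p = 0.0731).

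The promoters of Tgfb2 and Tgfbr2 are shown because both genes were called lower, with that of Tgfb1, which was not, beside them. The Tgfb2 call has the limit given above, as the gene passed the filter only through normal brain. Promoters of 6 of the 10 genes were found in the RefSeq table for GRCm38.p6. Bmp2 and Smad7, which were also called lower, were not among them. Each sequence is the 250 bases before the annotated gene start, 5′ to 3′ on the gene's strand, at chr1:186705990-186706239 (minus), chr9:116175364-116175613 (minus) and chr7:25686752-25687001 (plus). Capitals mark CAGAC or its reverse complement, the core of the Smad box.
Tgfb2: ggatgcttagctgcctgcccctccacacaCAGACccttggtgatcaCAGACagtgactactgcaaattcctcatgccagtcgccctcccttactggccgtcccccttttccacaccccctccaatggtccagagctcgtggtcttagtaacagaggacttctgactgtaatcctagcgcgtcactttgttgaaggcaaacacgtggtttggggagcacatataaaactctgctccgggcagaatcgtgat
Tgfbr2: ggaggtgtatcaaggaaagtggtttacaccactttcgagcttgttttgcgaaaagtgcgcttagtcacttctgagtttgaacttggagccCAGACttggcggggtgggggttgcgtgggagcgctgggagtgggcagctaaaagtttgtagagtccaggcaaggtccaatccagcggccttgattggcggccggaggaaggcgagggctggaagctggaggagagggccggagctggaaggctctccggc
Tgfb1: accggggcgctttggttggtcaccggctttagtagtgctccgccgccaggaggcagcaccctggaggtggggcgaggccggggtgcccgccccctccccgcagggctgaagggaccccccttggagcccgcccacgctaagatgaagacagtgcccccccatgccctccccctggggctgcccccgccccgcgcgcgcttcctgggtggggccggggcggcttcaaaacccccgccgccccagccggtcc
CAGAC occurred on either strand 2 times in the Tgfb2 window, 221 and 204 bases before the start, 1 time in that of Tgfbr2, 160 bases before it, and 0 times in that of Tgfb1. It occurs in 42.2% of all 32851 promoters of this length, so a match is common. The palindromic Smad-binding element GTCTAGAC (0.167% of promoters) and the AP-1 element TGANTCA (6.75%) were in none of the 3 windows. The GC box GGGCGG (32.7%) occurred 5 times before Tgfb1, and the TATA box TATAAA (12.4%) 1 time before Tgfb2, with no overlap of these motifs with CAGAC. The G and C share was 53.6% for Tgfb2, 58.4% for Tgfbr2 and 75.2% for Tgfb1.

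Smad7, the inhibitory Smad that blocks the receptor and is induced by the pathway, fell by 0.65 (SE 0.15, 95% interval -0.97 to -0.33, limma adjusted p = 0.0182). Its signal was 2114, 2259, 2329 and 2067 in Gl261, against 3318, 3086 and 3991 in normal brain. The groups were well apart, and the 4 Gl261 arrays lay close together. The probe set with this call has an _x_ suffix, which marks probes that can also bind other transcripts. The other Smad7 probe set, without that suffix, gave 1706, 1929.5, 2063 and 2125 in Gl261 and 2311, 2128 and 3016 in normal brain. Its difference of -0.33 was not called (limma adjusted p = 0.301 over all probe sets). The call was lost without normal brain replicate 3 (limma adjusted p = 0.0588) or Gl261 replicate 4 (0.0502), without both Gl261 replicate 2 and normal brain replicate 1 (0.0589), under median centring (0.0956), with a single prior variance (0.0800) and for the mean of its probe sets (-0.49, 0.0789).

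The transducers that carry the signal were not called. Smad3, which takes the TGF-beta signal to the nucleus, had signals of 1388, 2551, 1209 and 1122 in Gl261 and 2067, 2103 and 1250.3 in normal brain. The groups overlapped, with Gl261 replicate 2 the highest of all arrays, and the difference was -0.25 (95% interval -0.87 to 0.38, limma adjusted p = 0.626). Its other probe sets, both dim, differed by 0.96 and -1.36 and were not called. Smad2 differed by 0.40 (SE 0.22, limma adjusted p = 0.276), with all Gl261 arrays above all normal brain arrays, and the shared Smad4 by -0.22 (SE 0.16, limma adjusted p = 0.406). Smad1 of the BMP branch differed by -0.47 (SE 0.18, limma adjusted p = 0.116), and by 0.14 for the mean of its probe sets. Smad5 of the same branch, added after its values were seen, differed by 0.56 (SE 0.30, limma adjusted p = 0.257), with all Gl261 arrays above all normal brain arrays.

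Ski and Skil, nuclear repressors of Smad target genes, were not called. Skil had signals of 7043, 7058, 7651 and 8714 in Gl261, against 8961, 9931 and 10794 in normal brain. The groups did not overlap, but only just, and the difference of -0.38 (SE 0.14, 95% interval -0.69 to -0.07) had a limma adjusted p of 0.112. Ski ranged over 2883 to 3802 in Gl261 and 3726 to 4090.3 in normal brain, with a difference of -0.22 (limma adjusted p = 0.364). Another Ski probe set differed by 0.08 and another Skil probe set by -0.23, both with overlapping groups.

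Tgfbi, a secreted matrix protein named for its induction by TGF-beta, had 4 probe sets that gave different answers. The probe set with the highest mean, whose _x_ suffix marks probes that can also bind other transcripts, read 10255, 8357, 12480.0 and 14400.4 in Gl261 and 10838, 9501 and 10788 in normal brain. These groups overlapped (difference 0.11, 95% interval -0.30 to 0.51, limma adjusted p = 0.759). A probe set without such a suffix read 10154, 9551, 14759 and 14250.1 in Gl261, against 7885, 7032 and 8086 in normal brain. Here every Gl261 array was above every normal brain array, and the difference of 0.64 (SE 0.18) was not called over all probe sets (limma adjusted p = 0.0605). The remaining 2 probe sets differed by 0.46 and 0.15 (limma adjusted p = 0.164 and 0.631). Gl261 replicates 3 and 4 had the 2 highest values of all arrays in each of the 4 Tgfbi probe sets.

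**Figure D2:**
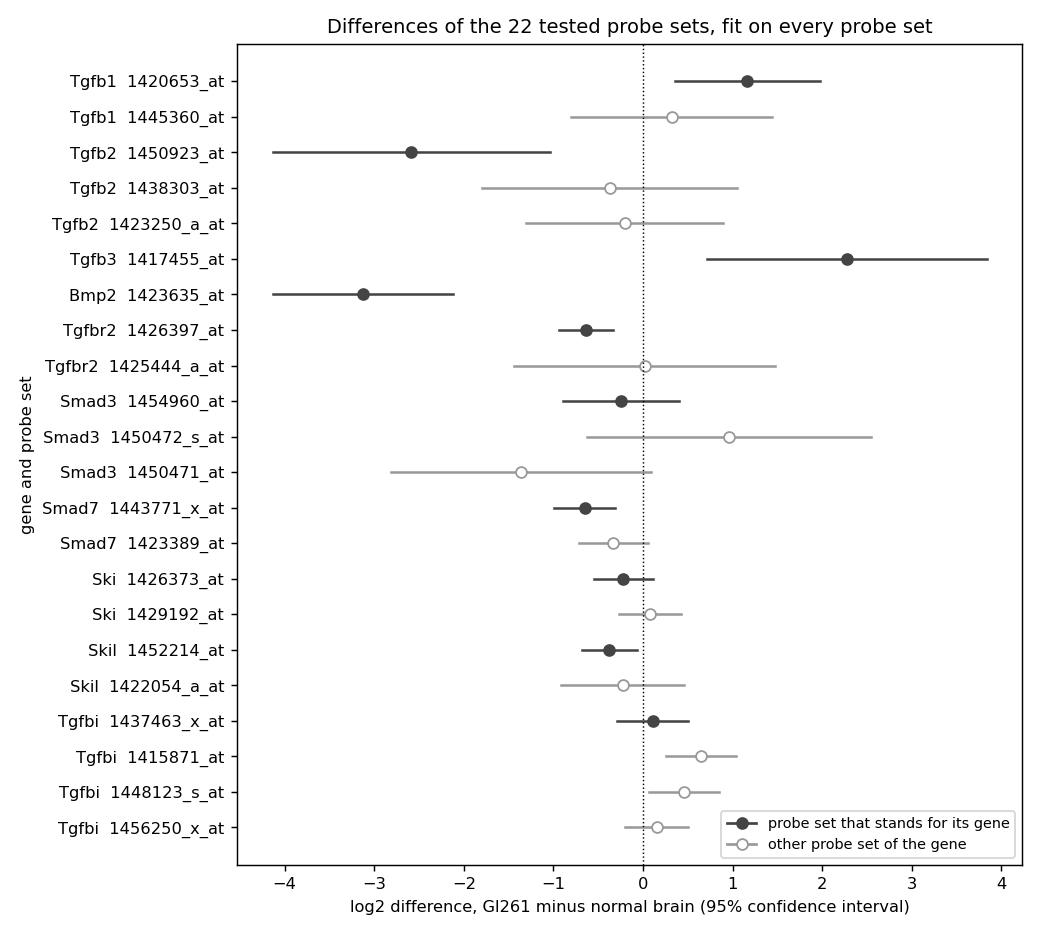
The plot gives the log2 difference (Gl261 minus normal brain) with its 95% confidence interval for the 22 tested probe sets of the 10 genes, filled for the probe set that stands for its gene and open for the others, in the fit on every probe set. The widest intervals belong to a dim Smad3 probe set and to the probe sets that stand for Tgfb3 and Tgfb2, and Bmp2 lies farthest from 0 at -3.13.

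In the fit on all 27022 tested probe sets, 3 of the 22 tested probe sets of these genes were called, against 5.45% of all probe sets. They stood for Bmp2 (limma adjusted p = 0.00414), Tgfbr2 (0.0233) and Smad7 (0.0348). None of the other probe sets of the 10 genes was called, and groups without overlap were found for 8 of the 22, against 20.3% of all probe sets. The 8 include the Tgfb2 probe set that passed the filter only through normal brain. A further pair of probe sets, of Tgfb2 and Tgfbr2, did not pass the filter on low values.

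The adjusted p-values of the 6 genes nearest to the threshold are compared across settings in the plot of alternatives.

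**Figure D3:**
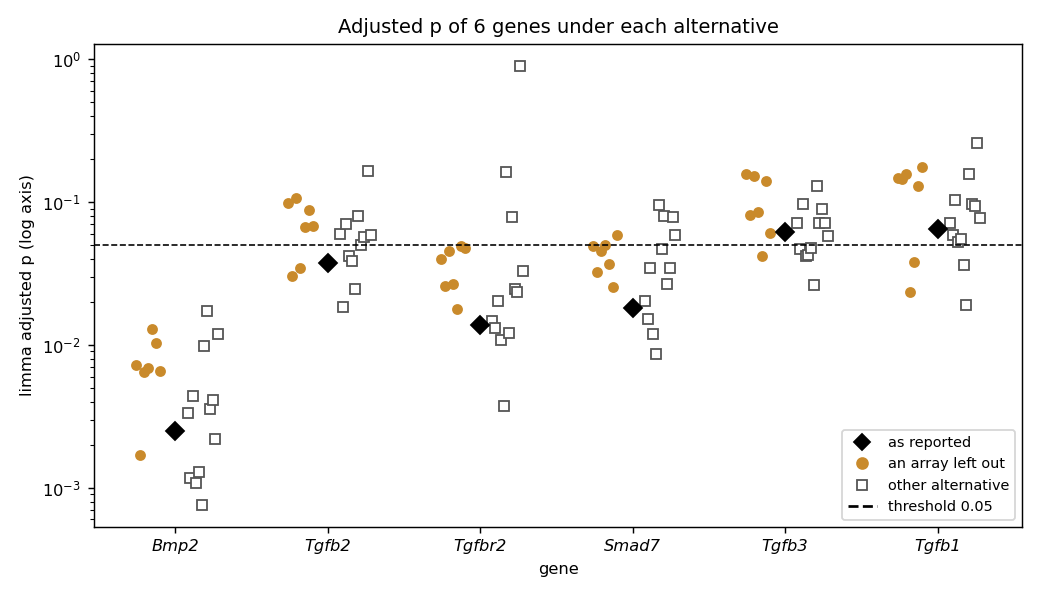
The vertical log axis gives the limma adjusted p of 6 genes as reported (black diamond), in the 7 fits without 1 array (orange) and under the other alternatives (open squares), with the threshold of 0.05 as a dashed line. Bmp2 stays under the line in every fit, whereas Tgfb2, Tgfbr2, Smad7, Tgfb3 and Tgfb1 have points on both sides.

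The wider pathway was described by lists of ligands and activators, receptors, Smads, inhibitors and target genes, which include the 10 genes. Some genes are in more than 1 list. Outside the 10, 72 such genes were matched and 49 tested, of which 2 were called higher and 2 lower in Gl261, with a median difference of -0.22. The percentages over all tested genes, given above, were 5.92% and 4.2%. Of 13 ligand and activation genes 0 were called higher (3 at an unadjusted limma p under 0.05) and 2 lower (2 unadjusted), Bmp2 and Tgfb2, with a median of 0.04. Of these, Tgfb2 passed the filter on low values only through normal brain. Inhba of the same list, which was not called, passed it only through Gl261. Of 12 receptors 0 were called higher (1 unadjusted) and 1 lower (3 unadjusted), Tgfbr2, with a median of -0.33. Of 10 Smads and partners 0 were called higher (0 unadjusted) and 1 lower (3 unadjusted), Smad7, with a median of -0.23.

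Of 13 inhibitors Dcn was called higher and Smad7 lower (median -0.38). Dcn encodes decorin, a matrix proteoglycan that binds TGF-beta and is made mainly by fibroblasts. Its log2 values were 8.15, 8.63, 9.67 and 8.94 in Gl261, against 7.09, 6.85 and 7.89 in normal brain. The difference of 1.57 (SE 0.45, limma adjusted p = 0.0470) was lost in 13 of 19 alternatives. Bambi, a decoy receptor, and Tgif1, a Smad corepressor, were picked out after their values were seen: Bambi differed by -0.95 (limma adjusted p = 0.0770) and Tgif1 by 0.46 (limma adjusted p = 0.0746), each with groups that did not overlap, and neither was called in any alternative.

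Of 17 target genes 1 was called higher and 3 lower (median -0.27). The 3 include Smad7, which is also the gene called lower among the Smads and among the inhibitors. Tsc22d1, a leucine zipper gene induced by TGF-beta, fell by 1.09 (SE 0.19, limma adjusted p = 0.00494), with log2 values of 10.72, 10.91, 10.55 and 10.16 in Gl261 against 11.70, 11.70 and 11.62 in normal brain. The normal brain arrays were nearly equal, and the call was lost only for the mean of the probe sets. Klf10, a zinc finger gene induced early by TGF-beta, fell by 0.47 (SE 0.14, limma adjusted p = 0.0486), a call that none of the 7 fits without 1 array kept (limma adjusted p = 0.0634 to 0.152). The collagen gene Col1a1 rose by 2.73 (SE 0.73, limma adjusted p = 0.0353), and it is also among the fibroblast and pericyte markers whose sums are given above. Its log2 values were 10.45, 10.68, 9.73 and 9.24 in Gl261, against 5.22, 7.46 and 9.20 in normal brain, and without normal brain replicate 1 the difference was 1.70. The Col1a1 call was lost in 10 of 19 alternatives and held in 1 of the 7 fits without 1 array (limma adjusted p = 0.00552 to 0.0910). The Id genes, direct BMP targets that were picked out after their values were seen, had lower means and none was called: Id1 differed by -0.74 (limma adjusted p = 0.300), Id2 by -0.47 (0.113, and by 0.11 for the mean of its probe sets), Id3 by -0.20 (0.618) and Id4 by -1.57 (0.319). Id4 passed the filter on low values only through normal brain, with 2 of 4 Gl261 and 2 of 3 normal brain arrays above background.

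**Figure D4:**
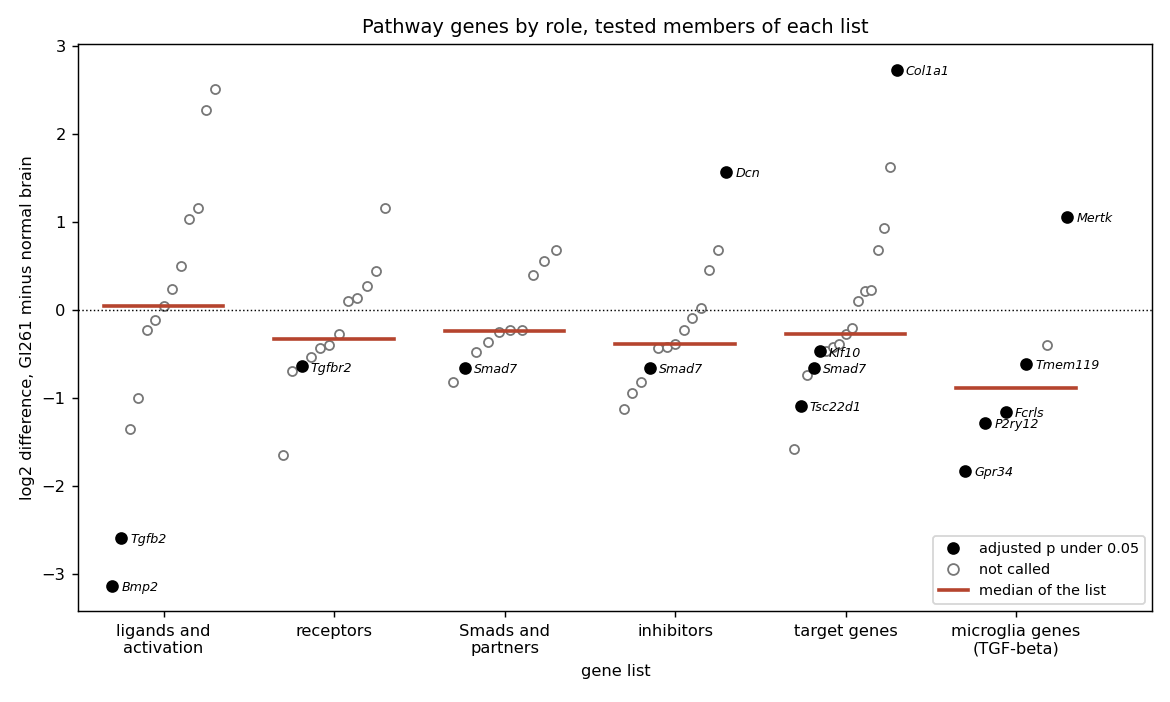
Each point is the log2 difference (Gl261 minus normal brain, vertical axis) of a tested gene in the gene list named on the horizontal axis, filled and named where its adjusted p was under 0.05, and the red line is the median of the list. The medians of the receptors, Smads, inhibitors and target genes lie between -0.23 and -0.38, and that of the microglia genes at -0.88.

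Microglia genes known to depend on TGF-beta overlap with the resident microglia programme. Of 6 tested, 4 were called lower in Gl261 and 1 higher (median -0.88). Over all tested genes 4.2% were called lower and 5.92% higher (median 0.04). Gpr34, a lysophospholipid receptor, fell by 1.82 (limma adjusted p = 0.000240), and so did P2ry12, a purinergic receptor (-1.28, 0.00913), Fcrls, an Fc receptor-like gene (-1.15, 0.00909), and Tmem119, a microglial membrane protein (-0.61, 0.0252). Mertk, a receptor for apoptotic cells, rose by 1.06 (limma adjusted p = 0.0243). Gpr34 was called in all 19 alternatives, but the calls of Mertk and Tmem119 were lost in 7 and 8 of 19, each of them in 5 of the 7 fits without 1 array (limma adjusted p up to 0.0757 and 0.0773) and under median centring (0.0579 and 0.131). All 5 tested microglia markers, 3 of them among these genes, were called lower, with summed signals of 7814 to 11274 in Gl261 and 17715 to 21239 in normal brain, and their part in the TGF-beta gene values was not tested.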

How the data were processed

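RNA of sorted macrophages was hybridised to 7 one-colour arrays. The authors deposited linear intensity values per probe set made with MAS5, per the labels; no MAS5 version, detection call or genome build is given in the sources used here. The deposited intensity values were turned into log2(signal + 6), 6 being the 20th percentile of all values. Probe sets with a mean log2 above 4.93 were tested, 1 per gene for 12125 genes, with limma 3.58.1 in R 4.3.3 (lmFit, eBayes with trend) and Benjamini-Hochberg adjustment over all of them. A second fit took all 27022 probe sets above the filter. Single measures were compared by exact permutation in Python 3.11.15 with scipy 1.17.1. Background was the 95th percentile of 27 Bacillus control probe sets. The fit was also run on simulated data. The planted differences were larger than those of Tgfbr2 and Smad7, so the run gives no recovery rate for differences of that size. The 10 genes, pathway lists and markers were chosen with earlier results of these data known. Named genes were all 10, up to 6 called genes per list (or the 2 smallest p-values), and Tgfbr1, Smad2, Smad4 and Adgre1. Alternatives changed the constant, filter, scaling, variance model, probe set choice, replicate block and arrays. The number of arrays limits the precision.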

Additional observations from a re-analysis of the deposited data

Results flagged for a closer look

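In 5 of 62 sets of Gl261 values, 1 of the 4 arrays stood apart from the others by more than Dixon's critical value allows for its gap as a share of the range; chance gives about 1 in 20. The Tgfbr2 probe set that was at or under background had a low value in Gl261 replicate 1 (0.8435). Klf10 was high in Gl261 replicate 4 (0.8802), with a log2 of 12.42 against 12.29 to 12.31 in the other Gl261 arrays. Mertk was low in Gl261 replicate 2 (0.9067), with a log2 of 11.31 against 12.38 to 12.49. The summed endothelial markers were high in Gl261 replicate 2 (0.8605), at 1691 against 508 to 673. The summed red cell markers were high in the same array (0.9722), at 4506 against 93.7 to 216.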

How the results depend on the processing

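Of the 10 genes, 0 were called higher and 4 lower as reported. Called higher were 1 with the median of all values as constant, 1 with the filter at the 60th percentile, 1 after quantile normalization and 2 after median centring; called lower were 2 after median centring, 1 without the variance trend, 1 with the mean of the probe sets and 2 without both Gl261 replicate 2 and normal brain replicate 1, an alternative chosen after seeing the data. Other pathway genes, 2 higher and 2 lower as reported, numbered 0 and 1 with no filter, 4 and 5 after quantile normalization, 1 and 1 after median centring, 0 and 1 without the trend, 1 and 1 with array weights, and 0 and 1 without both arrays; 0 were lower with the mean of the probe sets. The microglia genes, 1 higher and 4 lower, had 0 higher after centring and 0 higher and 1 lower without the trend. Over all genes (1227 called, 718 higher and 509 lower), centring gave 810 with 305 lower, no trend 455 with 282 higher and 173 lower, the mean of the probe sets 317 lower, and leaving out both arrays 325 lower. Leaving out 1 array gave 0 to 2 of the 10 genes higher and 2 to 4 lower, 0 to 2 other pathway genes higher and 1 lower, 0 to 1 microglia genes higher and 3 to 4 lower, and 305 to 761 genes higher, 237 to 445 lower and 542 to 1171 in all, the lowest total without Gl261 replicate 3. The deviations of same-numbered arrays had correlations of 0.079, -0.0075 and 0.031. Differently numbered arrays were not compared, so whether the numbers pair the arrays was not tested. The fit with the replicate block gives no weight to Gl261 replicate 4, which has no same-numbered normal brain array. In that fit 2 of the 10 genes were higher and 5 lower, 6 other pathway genes were lower, and 1004 genes were called. Tgfbi (0.11 as reported) was at -0.018 with the block and between -0.018 (without Gl261 replicate 4) and 0.24 in the fits without 1 array, and with the mean of the probe sets Id2 was at 0.11 and Smad1 at 0.14. Tgfb2 gave no value with the 60th percentile filter. The causes of these changes were not tested. Signals near background limit Tgfb2, Id4 and the dim probe sets of Smad3 and Tgfbr2.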

Other observations

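Genes that store or release latent TGF-beta were picked out after their values were seen, and none was called by limma in the fit as reported. Ltbp1, which tethers latent TGF-beta to the matrix, had a difference of 2.52 (SE 0.83, limma adjusted p = 0.0748), and of 1.39 without normal brain replicate 2, whose value was under background. Thbs1, a matrix activator of TGF-beta, differed by 0.50 (SE 0.24, limma adjusted p = 0.205), whereas the mean of its probe sets gave 1.18 and was called (0.0392). The processing protease Furin differed by 0.23 (SE 0.14, limma adjusted p = 0.330). Nrros, which holds latent TGF-beta on microglia, differed by -0.11 (SE 0.15, limma adjusted p = 0.667), and the integrin chain Itgav by -0.22 (SE 0.18, limma adjusted p = 0.461). Inhba, an activin subunit, differed by 1.04 (SE 0.52, limma adjusted p = 0.225), with every Gl261 array above every normal brain array. It passed the filter on low values only through Gl261, and 2 of 3 normal brain arrays were above background.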
